A study of Mus musculus with 3 samples.

Results

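The p53 target genes of arrest and death were followed in mouse fibroblasts lacking Rb1 and Atm. The set holds 37 genes, chosen by name as Trp53 and genes that p53 is known to activate or to act through, out of 20010 genes that the arrays could name. It has 6 role groups: p53 with its feedback regulators (4 genes), arrest and cell cycle (8), apoptosis and death (13), DNA repair (5), metabolism and redox (4), and secreted or surface signals (3). Each member had a probe well above background on all 3 arrays, and none was lost to a filter. Members were chosen with earlier results of these data known, so their detection is not a finding about p53.

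RNA came from primary mouse embryonic fibroblasts (MEFs) of an Rb-ATM double knockout C57BL/6J mouse embryo at embryonic day 10.0, so all groups share Rb-/-;ATM-/- parent cells. The first group received a vector for a short hairpin RNA against Dnmt1 (genotype given as Rb-/-;ATM-/-;DNMT1-depleted), the second a vector for ATM (Rb-/-;ATM-/-;ATM-reconstituted), and the third an empty vector (Rb-/-;ATM-/-). The cells were kept in puromycin at 4 ug/ml for 3 days and then grown for 4 more days with no other treatment named. Each group was measured on 1 Agilent array with 1 dye, so no difference below has a replicate culture, a p-value or a standard deviation between samples. The labels derive the shRNA and ATM vector cells from the same parent culture as the empty-vector cells, and do not say whether a selected pool or a clone was measured.

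The transcription factor p53 is held low by the ubiquitin ligase Mdm2, itself a p53 target, and is released when kinases such as ATM act on p53 and Mdm2 after DNA damage. Active p53 turns on genes that halt the cell cycle, start apoptosis, repair DNA or adjust metabolism, and which of these dominate depends on the cell and the stress. Loss of the retinoblastoma protein frees E2F factors, which can raise p53 through the Arf product of Cdkn2a. Dnmt1 copies methylation of CG dinucleotides to the new DNA strand at replication.

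Signals are given as relative signals, the processed signal of a probe divided by the 75th percentile of its array, and log2 ratios are differences of their log2 values. Since probes differ in brightness, levels are compared between arrays and not between genes. Every member probe was spotted 1 time per array. The scanner software put the error of a signal at 10.0% to 13.4% for the 44 of 45 member probes that were well above background on each array, which gives a log2 ratio an error of 0.20 at the lower figure. That error is technical and leaves out any difference between cultures. Log2 ratios from different probes of 1 gene scattered with an SD of 0.20 for the Dnmt1 shRNA array over the empty-vector array, and of 0.34 for the ATM vector array over it, pooled over 3157 genes. For the ATM vector array over the Dnmt1 shRNA array the SD was 0.37.

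The Dnmt1 probe, which checks the hairpin, had relative signals of 0.464 on the Dnmt1 shRNA array, 1.51 on the ATM vector array and 2.12 on the empty-vector array. Of the Atm probes, 1 was above background, with 0.178, 0.195 and 0.186 in the same order. Its place relative to the deleted part of the gene and to the vector is unknown, so it checks neither. The Rb1 probe, also of unknown place, had log2 ratios of 0.70 for the Dnmt1 shRNA array and -0.10 for the ATM vector array over the empty-vector array. Probes well above background made up 59.6%, 55.0% and 55.1% of the total. The Dnmt1 shRNA and empty-vector arrays shared slide 1 and scan 1, while the ATM vector array was alone on slide 2 and scan 2, so slide, scan and ATM vector cannot be told apart. Control spots for added spike-in RNA had a median signal of 304 on the Dnmt1 shRNA array, 92.1 on the ATM vector array and 306 on the empty-vector array, and the scanner software marked the ATM vector array for evaluation.

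Markers of cell types were read the same way, and those named here were chosen after their values were seen. Of 16 fibroblast markers, 16, 15 and 15 were well above background on the Dnmt1 shRNA, ATM vector and empty-vector arrays, with summed relative signals of 760, 894 and 683. With the hairpin 3 of them were at least 2-fold higher (Thy1 at least 36.2-fold, Lum 2.49-fold and Pdgfra 2.26-fold) and 1 was lower (Fap, 2.16-fold). With the ATM vector 1 was higher (S100a4, 3.38-fold) and 3 were lower (Fap at least 23.8-fold, Lum 9.23-fold and Dcn 2.15-fold). Shares of all genes were 5.19% higher and 1.57% lower with the hairpin, and 7.55% and 6.82% with the ATM vector. Fibroblast markers thus differed among the arrays in both directions, as all genes did.

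Of 10 epithelial markers, 8, 5 and 5 were well above background, with sums of 3.28, 2.68 and 2.44, and they differed in several directions. Krt18, Krt8 and Dsp were well above background on the Dnmt1 shRNA array alone, and were there at least 39.8-fold, 22.0-fold and 4.61-fold higher than on the empty-vector array. Krt14 had 0.143, 2.14 and 0.0339, and was 63.1-fold higher with the ATM vector and 4.24-fold higher with the hairpin. Krt19 had 1.99, 0.428 and 2.31, and was 5.41-fold lower with the ATM vector. Epcam was above background on none of the arrays.

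Of 9 blood and macrophage markers on the array 4, 4 and 4 were well above background, with sums of 3.06, 2.91 and 2.31. The haemoglobin gene Hba-a1 had 0.0137, 0.961 and 0.0116 and was at least 58.8-fold higher with the ATM vector. Csf1r had 0.389, 0.149 and 0.191 and was 2.04-fold higher with the hairpin, Cd14 was 2.07-fold lower with the ATM vector, and Lyz2 was above background on none. Of 8 endothelial markers 4, 3 and 3 were well above background, with sums of 1.02, 1.58 and 1.06. Kdr had 1.81, 2.97 and 1.96 by its probe above background, Pecam1 and Vwf were also above background on each array, and Cdh5 was on none. The sums of all marker groups average every probe of a gene, dim ones included, so Kdr by 1 probe exceeds the sum of its group. Of 10 neural markers 3, 3 and 3 were well above background, with sums of 2.98, 5.63 and 2.18. Tubb3 was 2.94-fold higher with the ATM vector, and Sox2 was above background on none. Their part in the differences below was not tested, and in bulk RNA a change in the share of a cell type cannot be told apart from a change in RNA per cell.

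Promoter sequence was available from RefSeq (GRCm38.p6) for 29 of the 37 members. Of 9 members at least 2-fold different from the empty-vector array, 7 had a window that was read. The 250 bases before the most upstream annotated start of each follow, with CG dinucleotides, the substrate of Dnmt1, in capitals. They are chr8:70632457-70632706 on the minus strand for Gdf15, chr16:38458683-38458932 on the plus strand for Cd80, chr19:34290409-34290658 on the plus strand for Fas, chr4:117133964-117134213 on the minus strand for Plk3, chr6:67037408-67037657 on the minus strand for Gadd45a, chr10:41810324-41810573 on the plus strand for Sesn1 and chr4:132510457-132510706 on the minus strand for Sesn2, each read 5′ to 3′ on the strand of its gene.
Gdf15: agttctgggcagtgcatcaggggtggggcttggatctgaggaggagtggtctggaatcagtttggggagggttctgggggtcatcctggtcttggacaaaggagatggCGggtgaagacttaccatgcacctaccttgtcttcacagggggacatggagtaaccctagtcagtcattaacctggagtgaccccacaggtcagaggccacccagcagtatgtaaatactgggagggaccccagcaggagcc
Cd80: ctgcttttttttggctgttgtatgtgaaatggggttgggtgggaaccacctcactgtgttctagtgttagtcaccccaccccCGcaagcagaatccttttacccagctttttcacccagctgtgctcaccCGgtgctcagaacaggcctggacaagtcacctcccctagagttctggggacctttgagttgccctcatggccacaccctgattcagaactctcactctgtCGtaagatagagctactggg
Fas: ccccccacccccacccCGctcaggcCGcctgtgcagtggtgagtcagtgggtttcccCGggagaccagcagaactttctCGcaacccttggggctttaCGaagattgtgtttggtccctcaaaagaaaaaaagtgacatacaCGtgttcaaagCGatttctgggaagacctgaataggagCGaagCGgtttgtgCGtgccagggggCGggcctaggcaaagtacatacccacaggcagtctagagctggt
Plk3: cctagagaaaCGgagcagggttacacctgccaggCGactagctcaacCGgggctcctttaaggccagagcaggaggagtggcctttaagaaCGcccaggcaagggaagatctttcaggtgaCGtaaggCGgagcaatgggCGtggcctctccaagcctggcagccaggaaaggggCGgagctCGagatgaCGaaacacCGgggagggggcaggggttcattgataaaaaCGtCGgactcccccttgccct
Gadd45a: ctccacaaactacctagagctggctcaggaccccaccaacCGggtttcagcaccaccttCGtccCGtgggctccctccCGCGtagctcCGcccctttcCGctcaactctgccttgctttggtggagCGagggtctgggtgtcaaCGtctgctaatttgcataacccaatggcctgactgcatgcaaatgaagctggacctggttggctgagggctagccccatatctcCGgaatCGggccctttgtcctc
Sesn1: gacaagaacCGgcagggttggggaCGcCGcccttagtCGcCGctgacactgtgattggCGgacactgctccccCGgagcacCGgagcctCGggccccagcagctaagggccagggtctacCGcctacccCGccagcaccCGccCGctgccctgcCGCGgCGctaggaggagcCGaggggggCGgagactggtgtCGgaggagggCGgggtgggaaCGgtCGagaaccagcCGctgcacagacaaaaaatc
Sesn2: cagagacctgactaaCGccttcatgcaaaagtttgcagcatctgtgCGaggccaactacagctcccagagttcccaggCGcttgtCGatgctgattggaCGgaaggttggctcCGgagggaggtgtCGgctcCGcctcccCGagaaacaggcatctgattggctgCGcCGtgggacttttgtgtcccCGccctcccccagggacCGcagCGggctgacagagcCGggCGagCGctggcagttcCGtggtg
These windows held 1 CG dinucleotide in Gdf15, 3 in Cd80, 11 in Fas, 13 in Plk3, 11 in Gadd45a, 23 in Sesn1 and 18 in Sesn2. Of the 4 members higher with the hairpin, Gdf15, Cd80 and Fas thus ran from 1 to 11, and the promoter of Pmaip1 was not read. Gdf15 and Sesn1 each have a further annotated start, whose 300-base windows held 7 and 31 CG dinucleotides. Over the full windows of 300 bases, which run to 50 bases past the start, the 37 windows of the members held a median of 21.0 CG dinucleotides (range 1 to 46), and all 32851 windows a median of 7.0.

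The consensus decamer to which 1 pair of p53 subunits binds was searched on both strands of the 300-base windows, where matches may overlap other motifs. It was found in 12 of the 29 members, and in 9.55% of all genes with a window. In Gadd45a it began 40 bases before the start, in Ei24 10 bases, in Mdm2 186 bases and in Ppm1d 132 bases before it. Read on the strand of the gene, the matches were as follows.
Gadd45a: GGGCTAGCCC
Ei24: GGGCATGCCC
Mdm2: GAACTTGCCT
Ppm1d: GAGCTTGCTC
Sesn1 held a match, AAGCTTGTTT, in the window of its further start, 173 bases before it, and none in the window shown above. No match lay in the windows of Gdf15, Cd80, Fas, Plk3 or Sesn2, which says only that the decamer is not in these windows. The sequence TGATGNAA, part of the element that ATF4 and CHOP bind, was searched the same way and found in 1 of the 29 members, Polk, and in 4.51% of all genes.

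The Dnmt1 shRNA array against the empty-vector array asks what depletion of Dnmt1 does to this program. Most members were slightly higher, and Gdf15 clearly so. Members at least 2-fold higher were Gdf15, Cd80, Fas and Pmaip1, which is 4 of 37, or 10.8%, where 5.19% of all 13785 genes tested were. Cd80 at a log2 ratio of 1.10 and Fas and Pmaip1 at 1.04 passed 2-fold by less than the technical error, on 1 array each. Plk3 was the 1 member at least 2-fold lower, or 2.70%, where 1.57% of all genes were. Plk3, at -1.03, also passed 2-fold by less than the technical error. The median log2 ratio of the members was 0.24, and that of all genes was -0.009. Ratios were above 0 for 32 of 37 members (86.5%) and for 48.8% of all genes, yet 13 members lay within the technical error of 0.20. Medians of the 6 role groups ran from 0.16 to 1.10. At least 1.5-fold higher were 7 of 37 members, where 10.5% of all genes were, and 1 was lower, where 3.89% were.

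The ATM vector array against the empty-vector array asks what a vector for ATM does. Members differed in both directions, as all genes did, with a median and a share above 0 close to those of all genes. Gadd45a, Perp, Sesn2 and Sesn1 were at least 2-fold higher, again 4 of 37 (10.8%), where 7.55% of all 13242 genes tested were. Sesn2 at a log2 ratio of 1.16 and Sesn1 at 1.03 passed 2-fold by less than the technical error. Pmaip1 was the 1 member at least 2-fold lower (2.70%), where 6.82% of all genes were. The median log2 ratio was 0.02 in the members and 0.025 in all genes, and 19 of 37 ratios were above 0 (51.4%, against 51.8% of all genes). The metabolic group had the highest median at 0.70, and the arrest group the lowest at -0.25. At least 1.5-fold higher were 6 of 37, where 15.8% of all genes were, and 6 were lower, where 13.8% were. These figures and those of the Dnmt1 shRNA array rest on the same empty-vector array.

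**Figure D1:**
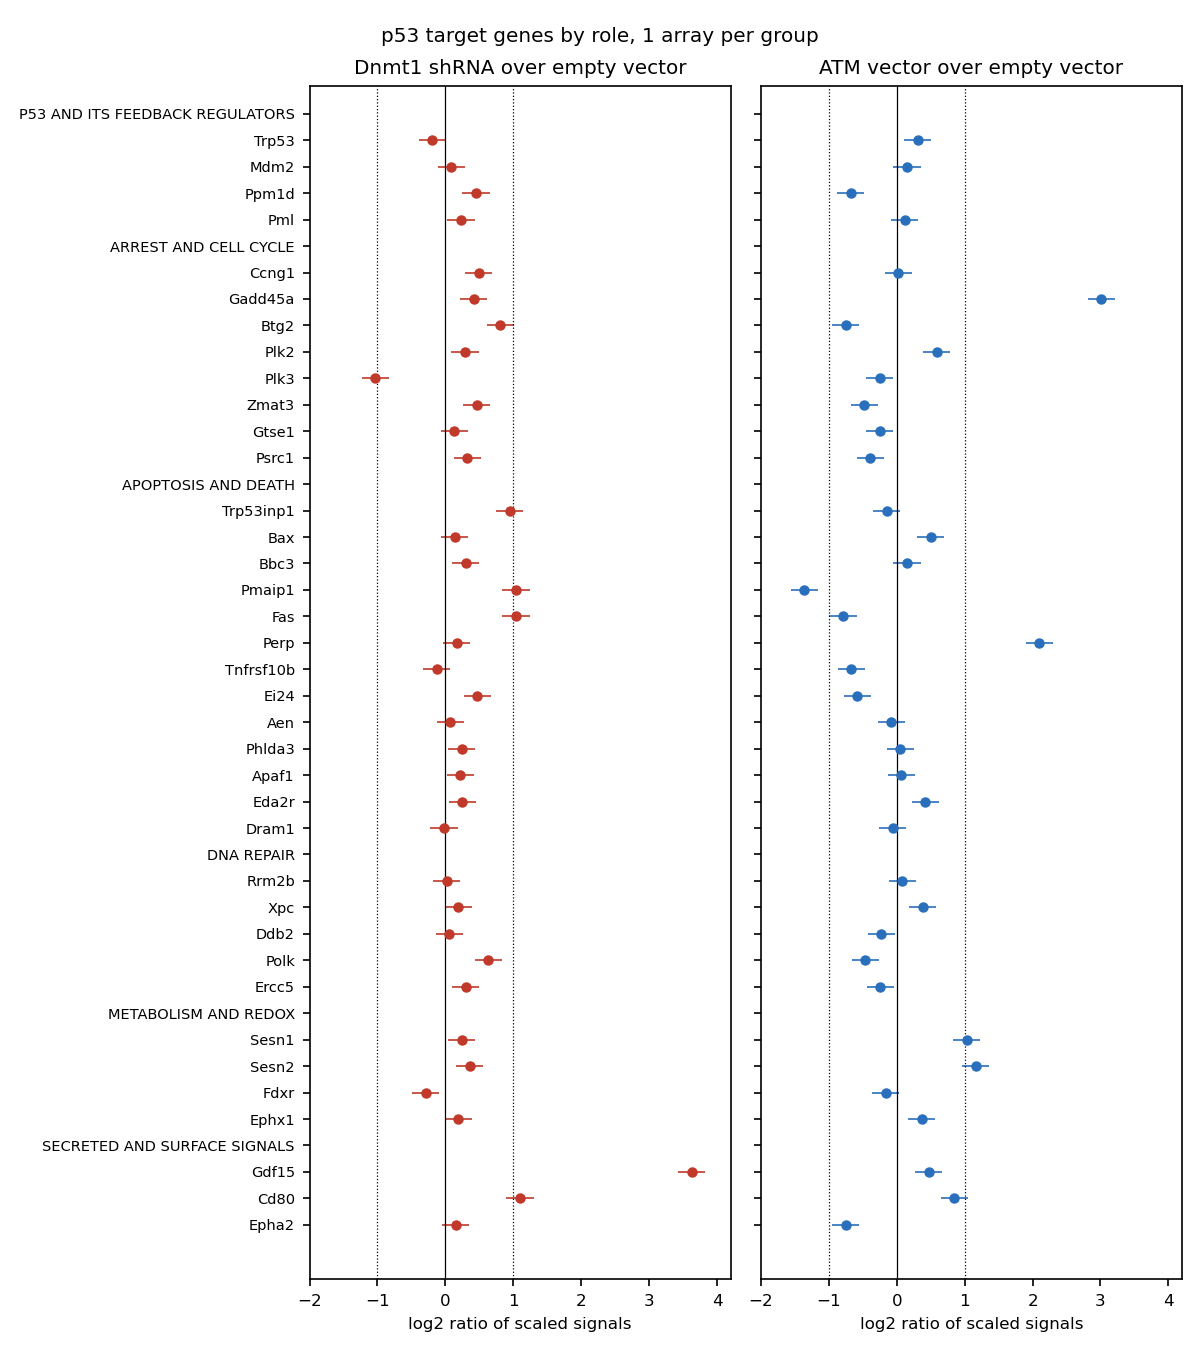
Log2 ratio of each of the 37 members by role group, for the Dnmt1 shRNA array over the empty-vector array (left) and the ATM vector array over the empty-vector array (right); bars show the technical error of 0.20 and dotted lines mark 2-fold. Points on the left lie mostly just right of 0 with Gdf15 at 3.63, and points on the right spread from -1.36 for Pmaip1 to 3.01 for Gadd45a.

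Among p53 and its feedback regulators 0 of 4 members were 2-fold different in either comparison, which says little of so few genes. Of all genes 5.19% were higher and 1.57% lower with the hairpin, and 7.55% and 6.82% with the ATM vector. Trp53, which encodes p53, had relative signals of 0.861 on the Dnmt1 shRNA array, 1.22 on the ATM vector array and 0.981 on the empty-vector array, and log2 ratios of -0.19 and 0.31 over the empty vector. Mdm2, the ligase that degrades p53, stood at 24.0, 25.1 and 22.6, with log2 ratios of 0.09 and 0.15, both within the technical error. Its 3 signals lay close together, unlike those of several other targets below. Ppm1d encodes the phosphatase WIP1, which reverses ATM signalling, and had 1.11, 0.507 and 0.812. Its log2 ratio was 0.45 for the Dnmt1 shRNA array and -0.68 for the ATM vector array, so it was highest with the hairpin and lowest with the ATM vector. Pml, whose product forms nuclear bodies that take up p53, had log2 ratios of 0.23 and 0.12.

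Arrest genes held the member furthest from the empty-vector array in the ATM vector comparison. Gadd45a, a stress-induced inhibitor of the G2 kinase Cdk1, had relative signals of 0.865 on the Dnmt1 shRNA array, 5.20 on the ATM vector array and 0.647 on the empty-vector array. It was 8.04-fold higher with the ATM vector (log2 ratio 3.01) and stood at a log2 ratio of 0.42 with the hairpin. Only the ATM vector array of the 3 arrays was high for this gene. Plk3, a stress-responsive kinase of the polo family, had 0.444, 0.762 and 0.908, and was 2.05-fold lower with the hairpin (log2 ratio -1.03) and at -0.25 with the ATM vector. Btg2, an antiproliferative cofactor of mRNA decay, had 3.59, 1.23 and 2.06. Its log2 ratios were 0.81 and -0.75, so the Dnmt1 shRNA array was above and the ATM vector array below the empty-vector array by more than 1.5-fold each.

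The remaining arrest genes lay closer to the empty-vector array. Ccng1, cyclin G1, which recruits a phosphatase to Mdm2, had 25.9, 18.7 and 18.5, a log2 ratio of 0.49 with the hairpin and 0.02 with the ATM vector. Zmat3, an RNA-binding protein that restrains growth, had log2 ratios of 0.46 and -0.48, and Plk2, a kinase of centriole duplication, 0.29 and 0.59. Gtse1 and Psrc1 encode microtubule-binding proteins of dividing cells; Gtse1 stood at 0.13 and -0.25 and Psrc1 at 0.32 and -0.39. Mitotic genes differed slightly between the arrays as well. With the hairpin 0 of 16 were 2-fold different (5.19% of all genes were higher and 1.57% lower), but 15 of 16 were below 0 (median -0.25). With the ATM vector 0 of 16 were 2-fold different (7.55% and 6.82% of all genes), but 13 of 16 were below 0 (median -0.26). The mitotic ratios with the hairpin ran from -0.53 for Bub1 to 0.17 for Aurkb, so the 0.13 of Gtse1 lay within their range and within the technical error, and the 0.32 of Psrc1 above that range. The part of proliferation in the arrest genes was not tested.

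Among apoptosis genes, Pmaip1 and Fas were highest with the hairpin and Perp with the ATM vector. Pmaip1, which encodes the BH3-only protein NOXA, had relative signals of 3.76 on the Dnmt1 shRNA array, 0.709 on the ATM vector array and 1.82 on the empty-vector array. It was 2.06-fold higher with the hairpin (log2 ratio 1.04) and 2.57-fold lower with the ATM vector (log2 ratio -1.36), and was the only member at least 2-fold different in opposite directions. The death receptor gene Fas had 6.86, 1.92 and 3.33, and was 2.06-fold higher with the hairpin (1.04) and at -0.79 with the ATM vector. Trp53inp1, a nuclear and autophagy protein that promotes p53-dependent death, had 0.890, 0.415 and 0.460 over its probes, with log2 ratios of 0.95 and -0.15. Its probes gave 1.03 and 0.88 with the hairpin, so 1 of them passed 2-fold and the mean did not.

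Perp, a tetraspan membrane protein of desmosomes that can promote apoptosis, was high with the ATM vector. It had 10.4 on the Dnmt1 shRNA array, 39.4 on the ATM vector array and 9.22 on the empty-vector array, which is 4.28-fold higher with the ATM vector (log2 ratio 2.10) and a log2 ratio of 0.17 with the hairpin. Only the ATM vector array was high. Among the same group, the pore-forming protein gene Bax stood at 0.14 and 0.50, Bbc3, which encodes the BH3-only protein PUMA, at 0.30 and 0.15, and the TRAIL receptor gene Tnfrsf10b at -0.13 and -0.67. Ei24, an endoplasmic reticulum protein, stood at 0.47 and -0.58. The exonuclease gene Aen, the Akt inhibitor gene Phlda3, the apoptosome gene Apaf1, the lysosomal gene Dram1 and the ectodysplasin receptor gene Eda2r all lay between -0.08 and 0.42 in both comparisons. The group as a whole had 2 of 13 at least 2-fold higher (15.4%, against 5.19% of all genes) and 0 lower with the hairpin, with a median of 0.24. With the ATM vector 1 was higher and 1 lower (7.69% each, against 7.55% and 6.82% of all genes), with a median of -0.06.

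**Figure D2:**
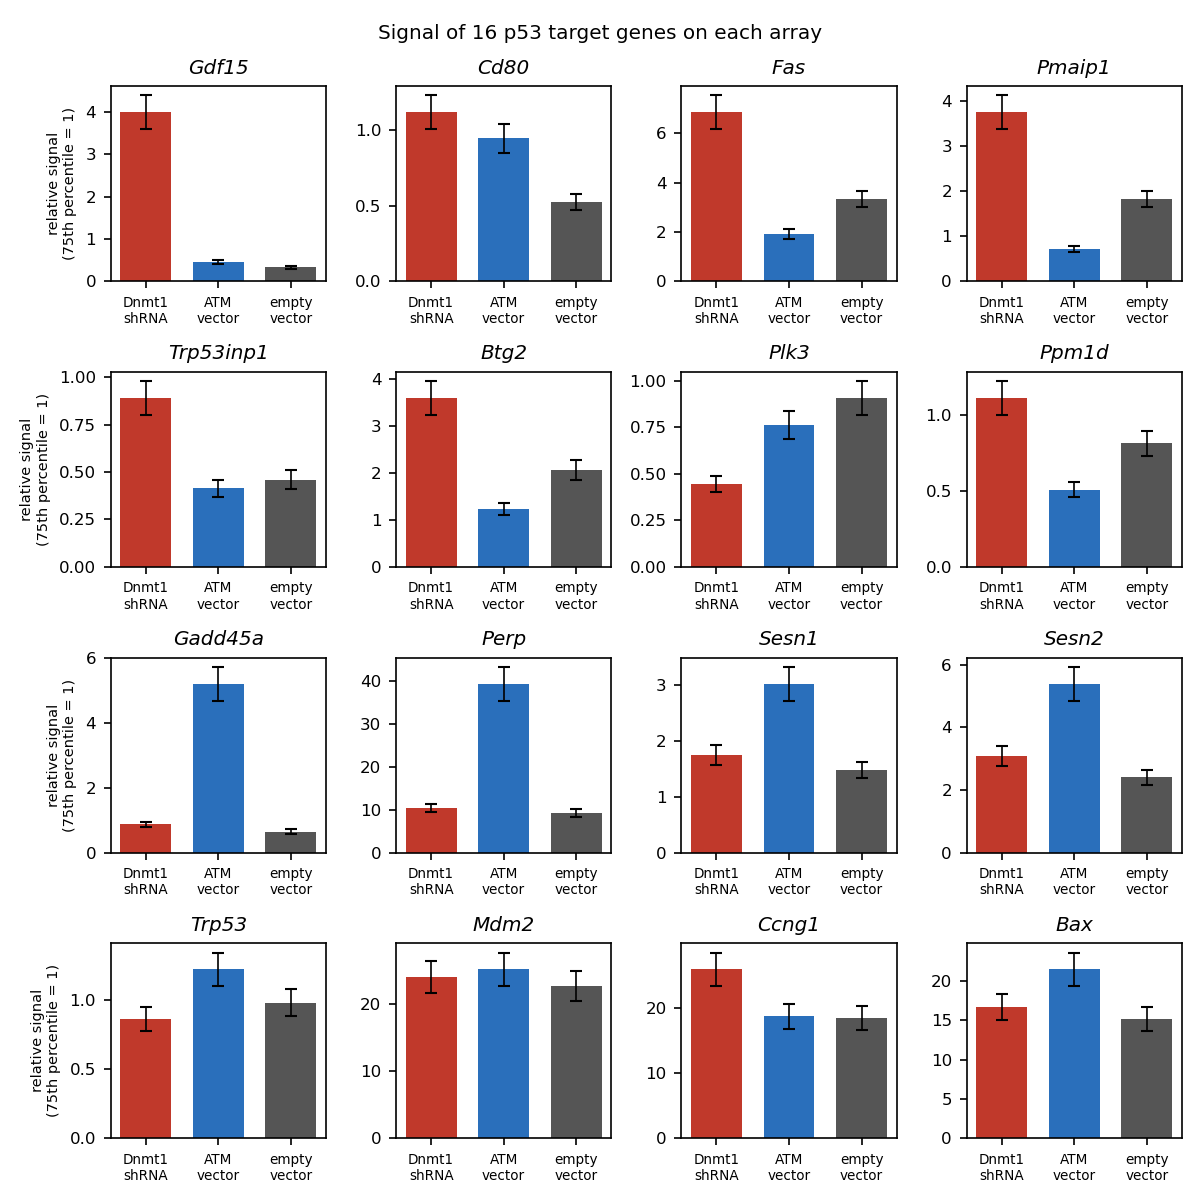
Relative signal (75th percentile of the array = 1; bars start at 0) of 16 members on the Dnmt1 shRNA, ATM vector and empty-vector arrays; error bars are the scanner software's error of the spot, not a spread between cultures. Gdf15 reaches 4.00 on the Dnmt1 shRNA array alone and Gadd45a 5.20 on the ATM vector array alone, while Mdm2 stays between 22.6 and 25.1.

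Among DNA repair targets 0 of 5 members were 2-fold different in either comparison, which says little of so few genes. Of all genes 5.19% were higher and 1.57% lower with the hairpin, and 7.55% and 6.82% with the ATM vector. Medians of the repair targets were 0.19 with the hairpin and -0.23 with the ATM vector. Polk, a translesion DNA polymerase, had relative signals of 0.449 on the Dnmt1 shRNA array, 0.211 on the ATM vector array and 0.290 on the empty-vector array, with log2 ratios of 0.63 and -0.46, and its probes differed by less than the technical error. Xpc and Ddb2 recognise damage in nucleotide excision repair; Xpc stood at 0.19 and 0.38 and Ddb2 at 0.06 and -0.23. Ercc5, the excision repair nuclease XPG, stood at 0.30 and -0.24. Rrm2b, the p53-inducible ribonucleotide reductase subunit, stood at 0.02 and 0.08 by its probe above background, while a second probe for it stayed below detection on each array.

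Of the 4 metabolic targets the sestrin genes Sesn1 and Sesn2 were at least 2-fold higher with the ATM vector, and Fdxr and Ephx1 were not. Sesn2, a sestrin that inhibits mTORC1 on leucine loss, had relative signals of 3.08 on the Dnmt1 shRNA array, 5.39 on the ATM vector array and 2.40 on the empty-vector array, 2.24-fold higher with the ATM vector (log2 ratio 1.16, and 0.96 after normexp background correction) and 0.36 with the hairpin. Sesn1, its paralog, had 1.75, 3.03 and 1.48, which is 2.04-fold higher with the ATM vector (1.03) and 0.24 with the hairpin. Both sestrins were thus highest on the ATM vector array, but passed 2-fold by less than the technical error, each by 1 probe. Fdxr, the mitochondrial ferredoxin reductase, stood at -0.29 and -0.16, and Ephx1, a microsomal epoxide hydrolase, at 0.19 and 0.37. With the ATM vector 2 of these 4 genes passed 2-fold, both upward, where 7.55% of all genes did. With the hairpin 0 of 4 did, where 5.19% of all genes did upward and 1.57% downward.

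Signals to other cells held the largest hairpin difference. Gdf15, a stress-induced cytokine of the TGF-beta family, had relative signals of 4.00 on the Dnmt1 shRNA array, 0.446 on the ATM vector array and 0.323 on the empty-vector array. It was 12.4-fold higher with the hairpin (log2 ratio 3.63) and stood at 0.47 with the ATM vector. Only the Dnmt1 shRNA array was high. Cd80, a ligand of T cell receptors CD28 and CTLA-4, had 1.12, 0.947 and 0.526, was 2.14-fold higher with the hairpin (1.10) and stood at 0.85 with the ATM vector, so both arrays lay above the empty-vector array. Its probes gave 1.08 and 1.11 with the hairpin and 0.91 and 0.79 with the ATM vector. Epha2, an ephrin receptor kinase, had 3.30, 1.77 and 2.97, with log2 ratios of 0.15 and -0.75.

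The ATM vector array set directly against the Dnmt1 shRNA array, without the empty-vector array, had more members lower than higher. Lower by at least 2-fold were 8 of 37 (21.6%, against 9.89% of all 13871 genes tested): Gdf15 at -3.16, Pmaip1 at -2.41, Fas at -1.84, Btg2 at -1.55, Ppm1d at -1.13, Trp53inp1 at -1.10, Polk at -1.09 and Ei24 at -1.06. Of these, Ppm1d, Trp53inp1, Polk and Ei24 passed 2-fold by less than the technical error. Higher by at least 2-fold were 2 of 37 (5.41%, against 7.08% of all genes): Gadd45a at 2.59 and Perp at 1.92. Of the 13 apoptosis genes 4 were lower (30.8%) and 1 higher (7.69%), where 9.89% and 7.08% of all genes were. Of the 4 metabolic genes 0 passed 2-fold in either direction, which says little of so few genes. The median log2 ratio was -0.15 over the members and 0.015 over all genes. At least 1.5-fold higher were 5 of 37, where 16.6% of all genes were, and 11 were lower, where 17.4% were. These arrays were on different slides.

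**Figure D3:**
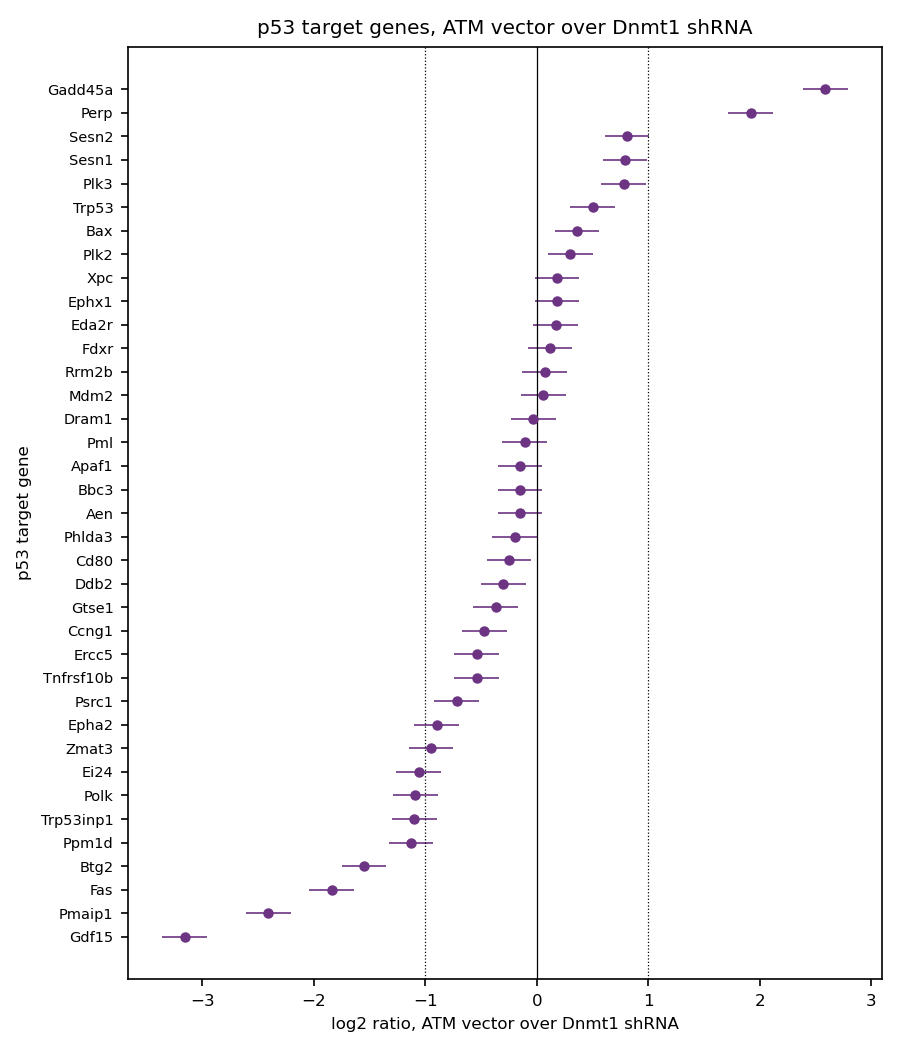
Log2 ratio of the ATM vector array over the Dnmt1 shRNA array for the 37 members, in order of the ratio; bars show the technical error of 0.20 and dotted lines mark 2-fold. Gdf15 at -3.16 and Pmaip1 at -2.41 lie at the low end, and Gadd45a at 2.59 and Perp at 1.92 at the high end.

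Further genes of the pathway, none of them members, were read beside the set. Of 34 further p53 target genes on the array, 34 could be compared for the Dnmt1 shRNA array over the empty-vector array: their median log2 ratio was 0.30, with 4 past 2-fold upward (11.8%, against 5.19% of all genes) and 0 downward (1.57% of all genes). Cdkn1a, the p21 inhibitor of cyclin-dependent kinases, had relative signals of 1.69 on the Dnmt1 shRNA array, 0.435 on the ATM vector array and 0.692 on the empty-vector array, the mean of its probes. It was 2.44-fold higher with the hairpin and 1.59-fold lower with the ATM vector, so its arrays stood in the same order as those of Pmaip1 and Fas. Its probes disagreed in size with the hairpin, at log2 ratios of 0.71 and 1.87, and 1 of them was thus under 2-fold; with the ATM vector they gave -0.76 and -0.58. The inflammatory caspase gene Casp1 was not well above background on the empty-vector array and was at least 7.88-fold higher with the hairpin and at least 9.51-fold higher with the ATM vector. In the same way Rprm, a G2 arrest gene, and Ano3 were at least 2.32-fold and 2.16-fold higher with the hairpin.

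Of the 32 further targets compared for the ATM vector array, 3 lay past 2-fold upward (9.38%, against 7.55% of all genes) and 6 downward (18.8%, against 6.82%), and the median log2 ratio was -0.39. Trp53i11 was at least 13.1-fold lower, the stem cell factor gene Kitl was 4.45-fold lower and the sestrin gene Sesn3 was 3.71-fold lower. Sesn3 had 1.53 on the Dnmt1 shRNA array, 0.428 on the ATM vector array and 1.59 on the empty-vector array, so it was low on the array where Sesn1 and Sesn2 were high.

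Few genes that act on p53 passed 2-fold, and few of all genes did. Of 22 upstream regulators, 0 were 2-fold different with the hairpin (median 0.04), where 5.19% of all genes were higher and 1.57% lower. Cdkn2a, which encodes p16 and the Mdm2 inhibitor Arf, had the largest log2 ratio there at 0.87. With the ATM vector 1 of 21 was at least 2-fold higher and 1 lower (4.76% each, against 7.55% and 6.82% of all genes), with a median of 0.08. The deacetylase gene Sirt1 stood at 1.37 and the damage adaptor gene Trp53bp1 at -1.04, from probes at -0.88 and -1.19.

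Several members are known targets of the stress factors ATF4 and CHOP in mouse or human cells as well, among them Sesn2, Gdf15, Tnfrsf10b, Pmaip1 and Gadd45a. Of 15 ATF4 and CHOP target genes on the array, 11 lay past 2-fold upward (73.3%, against 7.55% of all genes) and 0 downward with the ATM vector, where their median log2 ratio was 1.36; Sesn2 is counted in this list too. Cth, an enzyme of cysteine synthesis, had relative signals of 0.238 on the Dnmt1 shRNA array, 2.59 on the ATM vector array and 0.191 on the empty-vector array. Ddit3, which encodes CHOP, had 1.16, 3.43 and 0.597, and Trib3, a pseudokinase that CHOP induces, 8.56, 27.0 and 4.81. With the hairpin 0 of these 15 genes were 2-fold different, where 5.19% of all genes were higher and 1.57% lower. Their median was 0.29, and Ddit3 and Trib3 stood at 0.96 and 0.83. Gadd45a and Sesn2 were high on the ATM vector array, where these genes were high, whereas Pmaip1 and Tnfrsf10b were lower there than on the empty-vector array and Gdf15 was high on the Dnmt1 shRNA array. The part of ATF4 and CHOP in the members' differences was not tested.

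**Figure D4:**
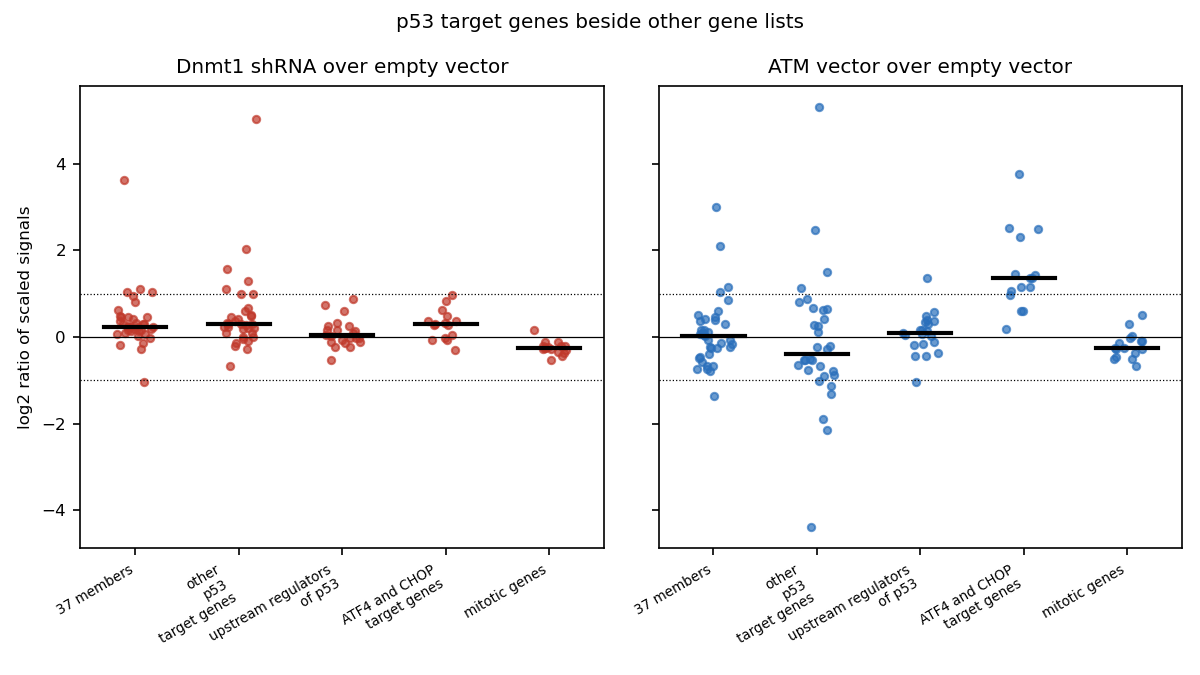
Log2 ratios over the empty-vector array, as measured and without bounds, of the 37 members, other p53 targets, upstream regulators, ATF4 and CHOP targets and mitotic genes, for the Dnmt1 shRNA array (left) and the ATM vector array (right); each point is 1 gene, black lines are medians and dotted lines mark 2-fold. The median of ATF4 and CHOP targets is 1.36 with the ATM vector, where that of the members is 0.02.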

How the data were processed

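Per the file headers and the submitters' processing notes, the authors deposited scanner output of Agilent Feature Extraction 10.7.3.1 (array design placed on mm9), 1 file per array, and a value table. The processed signal was deposited as a linear intensity after background subtraction and detrending within the array, with no scaling between arrays. The deposited value table holds the same intensity, within 0.495% for each of 44397 spots, with column medians of 80.4, 68.6 and 75.2 for the Dnmt1 shRNA, ATM vector and empty-vector arrays; its scale is linear, uncentred and without a direction. Other deposited columns are flags for signal above background, saturation and outliers, and spot and background medians as intensities.

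Groups were taken from the transfection label. Control and outlier spots were left out (235, 167 and 228 outliers in the order above), 0 spots were saturated, log2 signals were averaged per probe (39404 probes) and scaled by subtracting the log2 75th percentile of their array. Probes were named by RefSeq accession through a gene table of GRCm38.p6 (26412 of 39429 probes with 1 symbol, 0 with several, 13017 with none). Probes had to be well above background on 1 or both of the compared arrays, and gene ratios average those that were. Higher and lower mean at least 2-fold. For a gene dim on 1 array, the bright array was compared with that array's lowest signal above background, or with the dim signal if larger, and the fold is written as at least that size. With 1 array per group no test was made; precision is limited by having so few arrays. Normexp was planned on spot means, but the scanner files used here list medians and no means, so it was run on medians, a change made after the files were seen. The calculation of ratios was run on simulated arrays with less noise than the scatter between probes and changes well past 2-fold. No simulated gene was dim on 1 array only, so calls near 2-fold and the bounds were not tested. Named are all members, and up to 5 of the largest differences a comparison in each of the further p53, regulator, and ATF4 and CHOP lists. Of the mitotic genes the lowest and the highest with the hairpin are named. Dnmt1, Rb1 and Atm are named as well, and the cell type markers named were chosen after their values were seen. Members, lists and rules were chosen with earlier results of these data known. Python 3.11.15, numpy 2.4.6, pandas 2.3.3, matplotlib 3.10.9, R 4.3.3 and limma 3.58.1 were used.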

Additional observations from a re-analysis of the deposited data

How the results depend on the processing

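Member medians and role group medians were recomputed with normexp background correction, quantile normalization, cyclic loess, scaling to the median of probes well above background on all 3 arrays, no filter, a filter for all 3 arrays, the brightest probe, the value table of the authors and a common detection level; no median moved by more than the spread between probes, and no called member changed sign. Normexp on spot medians, and dim members at their bound, were chosen after seeing the data. Counts of members at least 2-fold different stayed within 1.5 times. Some calls near 2-fold changed: with normexp Sesn2 was under 2-fold on the ATM vector array (lowest log2 ratio 0.96), and so were Trp53inp1 and Polk between the ATM vector and Dnmt1 shRNA arrays, where 6 rather than 8 members were then lower. With the brightest probe Trp53inp1 passed 2-fold with the hairpin (1.03), and Zmat3 passed it between the ATM vector and Dnmt1 shRNA arrays after quantile normalization and cyclic loess. Without a filter the log2 ratio of Rrm2b was -0.37 with the hairpin and 0.45 between the ATM vector and Dnmt1 shRNA arrays, normexp put Trp53inp1 at 0.75 with the hairpin, and quantile normalization put Eda2r at 0.03. No paired analysis was possible because each group had 1 array, and slide and scan as a block were not run since the ATM vector array was alone on its slide. Signals of Eda2r and Rrm2b lay closest to background.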
